A study of Sus scrofa with 9 samples.

Results

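Sodium pump genes other than the catalytic subunit were examined in 9 porcine hearts procured after circulatory death. The genes, 5 in all, were the beta subunits ATP1B1, ATP1B2, ATP1B3 and ATP1B4 and the regulator FXYD1, each taken from its row in a table of 25149 genes by its symbol. Of these, 4 were listed, and ATP1B3 was not analysed here. ATP1B4 was chosen from its measured difference between Group 1 and Group 2, so that comparison is given for these genes as a description with no test. The other comparisons share hearts with it, so their p-values for ATP1B4 are not independent of that choice.

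All donors were female American Yorkshire pigs of 4 to 6 months, weighing 40 to 50 kg, and all hearts had 15 min of warm ischemia. Group 1 (NRP + HOPE 24 h, pigs 27, 28 and 30) and Group 2 (NRP + SCS 2 h, pigs 24, 25 and 29) then received normothermic regional perfusion (NRP) for 60 min, a procedure that restores warm circulation to the organs while they are still in the donor. Group 3 (No NRP + HOPE 2 h, pigs 31, 33 and 34) had none. Hypothermic oxygenated perfusion (HOPE) was run at 8 °C for 24 h in Group 1 and 2 h in Group 3, and Group 2 was kept in static cold storage (SCS) at 4 °C for 2 h. Every heart was then perfused warm for 2 h on a normothermic machine perfusion (NMP) circuit, and RNA came from an apex biopsy frozen at its end, with 1 biopsy per pig. The method, duration and temperature of storage therefore cannot be told apart between Groups 1 and 2, nor can NRP and the method and temperature of storage between Groups 3 and 2. No unperfused heart is part of these comparisons.

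The sodium pump (Na,K-ATPase) exchanges intracellular sodium for extracellular potassium at the cost of ATP, and in cardiac muscle the sodium gradient it maintains sets how much calcium is removed by sodium-calcium exchange. Its alpha subunit carries the catalytic and ion-binding sites, a beta subunit is required for folding and delivery of the alpha subunit to the membrane, and FXYD proteins tune its affinity for sodium. FXYD1 (phospholemman), the FXYD protein of heart muscle, restrains the pump until it is phosphorylated by protein kinase A or C. ATP1B4 is the exception in the beta family: in placental mammals its protein (BetaM) is not a pump subunit but a protein of the inner nuclear membrane of striated muscle, reported to bind the transcriptional co-regulator SNW1 and to act on the SMAD7 gene.

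Values are TPM, a read abundance corrected for the length of the gene and brought to an equal sum in every heart, so that levels of different genes can be set side by side. By mean TPM over the 9 hearts the order was FXYD1 (502 ± 138, SD), ATP1B1 (73.4 ± 32.5), ATP1B4 (16.5 ± 13.5) and ATP1B2 (2.38 ± 1.61). FXYD1 lay above ATP1B1 in 9 of 9 hearts and ATP1B1 above ATP1B4 in 9 of 9 hearts, with no overlap of their ranges. ATP1B4 lay above ATP1B2 in 8 of 9 hearts and below it in pig 30, so these neighbours in the order were not separated in every heart. The spread over hearts ran in another order. The coefficient of variation was 81.9% for ATP1B4, 67.7% for ATP1B2, 44.3% for ATP1B1 and 27.4% for FXYD1, and the highest heart exceeded the lowest 14.1-fold for ATP1B4 but 2.25-fold for FXYD1.

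The tissue was labelled as cardiomyocytes but consisted of whole biopsies. Summed TPM of the 6 listed of 10 cardiomyocyte markers overlapped between groups, at 22647 to 43212 in Group 1, 27139 to 37421 in Group 2 and 27043 to 37321 in Group 3. The 13 mitochondrially encoded genes took 38.2% to 55.3% of all TPM. Both ends of that range were Group 1 hearts, pig 30 the lowest and pig 27 the highest, and pig 30 also had the highest TPM of ATP1B1 and FXYD1 and the lowest of ATP1B4. In such bulk tissue, fewer cells of a type and less RNA per cell cannot be told apart.

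Of the 10 marker lists, summed TPM did not overlap between Groups 3 and 2 for neutrophil, erythroid and fibroblast markers, nor between Groups 1 and 3 for neutrophil markers and for smooth muscle and pericyte markers. Neutrophil markers, of which 3 of 4 were listed and CSF3R stood at 0 in all hearts, summed to 2.02 to 13.2 TPM in Group 2, 0 to 0.343 in Group 3 and 0.357 to 3.89 in Group 1. Groups 1 and 3 were thus parted only by 0.357 against 0.343 TPM, both near 0. Erythroid markers (3 of 5 listed), nearly all of it HBB, were 222 to 373 TPM in Group 3, 71.4 to 133 TPM in Group 2 and 73.9 to 425 TPM in Group 1. Fibroblast markers (6 of 7 listed) were 1037 to 1164 TPM in Group 3, 692 to 1015 TPM in Group 2 and 777 to 1141 TPM in Group 1. Smooth muscle and pericyte markers (5 of 6 listed, with MYH11 at 0 in all 9 hearts) were 225 to 412 TPM in Group 1, 432 to 489 TPM in Group 3 and 312 to 461 TPM in Group 2. The part of these sums in the values that follow was not tested.

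ATP1B4 (ENSSSCG00000012606, chrX:98514286-98535154 in Sscrofa11.1) was highest after NRP + SCS 2 h and lowest after NRP + HOPE 24 h. In Group 2 its TPM was 40.6 in pig 24, 17.1 in pig 25 and 36.5 in pig 29. In Group 3 it was 7.0 in pig 31, 12.2 in pig 33 and 18.8 in pig 34. In Group 1 it was 5.20 in pig 27, 8.64 in pig 28 and 2.88 in pig 30. The hearts of Groups 1 and 2 did not overlap, whereas pig 34 of Group 3 lay above pig 25 of Group 2 and pig 28 of Group 1 lay above pig 31 of Group 3.

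The mean TPM of ATP1B4 was 31.4 in Group 2, 12.7 in Group 3 and 5.57 in Group 1, and Group 2 exceeded Group 1 5.63-fold. On the log2(TPM + 1) scale the difference of Group 1 over Group 2 was -2.31 (SE 0.44). The median gene of that comparison stood at -0.12, and at 0.00 after median-of-ratios scaling, and that scaling gave -2.15 for ATP1B4. Among the 4 listed genes ATP1B4 alone had groups that did not overlap there, against 9.82% of the 11782 genes tested, and nothing is read from this count because the comparison chose the gene.

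For Group 3 over Group 2, the hearts differed in NRP and in the method and temperature of storage. The log2 difference of ATP1B4 was -1.25 (SE 0.44, 95% interval -2.20 to -0.31), with an unadjusted p of 0.0131 and an adjusted p of 0.534 (limma, Benjamini-Hochberg over all genes tested). For Group 1 over Group 3, which differ in NRP and in hours of HOPE, it was -1.06 (SE 0.44, 95% interval -2.0 to -0.11), with an unadjusted p of 0.0309 and an adjusted p of 0.795 by the same fit. ATP1B4 thus did not pass the adjusted threshold in either tested comparison. Its unadjusted p for Group 3 over Group 2 was 0.0569 without pig 24 and 0.065 without pig 31 (limma). For Group 1 over Group 3 it was 0.0519 under median-of-ratios scaling, 0.101 with array weights and 0.0584, 0.142, 0.0633 and 0.131 without pigs 27, 30, 33 and 34 (limma), where the difference without pig 30 was -0.73. The sums of neutrophil, erythroid and fibroblast markers separated Group 3 from Group 2, and those of neutrophil and smooth muscle markers separated Group 1 from Group 3, as given above. Markers of skeletal muscle, in which ATP1B4 is also known, summed to at most 0.823 TPM in any heart over the 3 of 6 listed. MYH2 and MYH4 were listed at 0 in all 9 hearts, from which no level is read, so that sum rests on MYLPF alone.

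**Figure D1:**
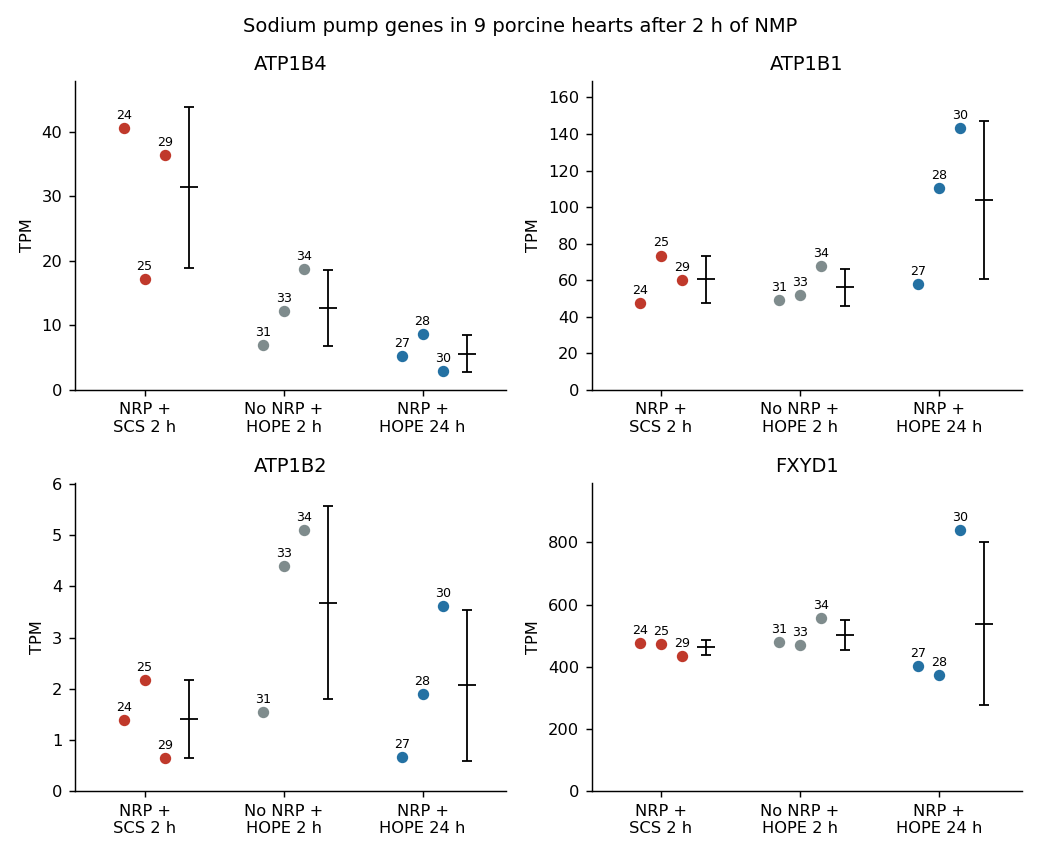
TPM of ATP1B4, ATP1B1, ATP1B2 and FXYD1 (vertical axes, linear from 0) in each heart of the 3 groups, with pig numbers beside the points and the mean ± SD (n = 3) as a bar. ATP1B4 runs from 40.6 in pig 24 to 2.88 in pig 30, with Group 1 wholly below Group 2, while ATP1B1, ATP1B2 and FXYD1 overlap between all groups.

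ATP1B1 (ENSSSCG00000006296, chr4:81912543-81937015), the beta subunit that pairs with alpha subunits in most tissues including the heart, was highest in Group 1. Its TPM there was 57.6 in pig 27, 110 in pig 28 and 143 in pig 30. Group 2 gave 47.3, 73.5 and 60.2 in pigs 24, 25 and 29, and Group 3 gave 48.9, 51.8 and 67.8 in pigs 31, 33 and 34. Pigs 28 and 30 lay above all hearts of the other groups and pig 27 lay among them. The mean TPM of Group 1 exceeded that of Group 2 1.72-fold, a log2 difference of 0.70 (SE 0.34) given as a description, which was 0.42 without pig 30 and 1.07 without pig 27. For Group 1 over Group 3 the log2 difference was 0.79 (SE 0.34, 95% interval 0.07 to 1.52), with an unadjusted p of 0.0342 and an adjusted p of 0.800 (limma, Benjamini-Hochberg), and without pig 30 it was 0.51 with an unadjusted p of 0.136. Leaving out pig 28, 31 or 33 also took that p above 0.05, to 0.0972, 0.0885 and 0.0809, and fitting only the 6 hearts compared gave 0.0535 (limma). Smooth muscle and pericyte markers, lower in Group 1, and neutrophil markers, higher there but parted only near 0, also separated these hearts. Group 3 over Group 2 gave -0.09 (95% interval -0.82 to 0.63, adjusted p = 0.979 by limma), a sign that turned under median-of-ratios scaling.

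ATP1B2 (ENSSSCG00000017951, chr12:52925697-52932638), a beta subunit best known from glia and neurons, lay on both sides of the filter of 1 TPM, from 0.652 to 5.10 TPM. It measured 1.39, 2.17 and 0.652 TPM in pigs 24, 25 and 29 of Group 2, and 0.680, 1.90 and 3.62 TPM in pigs 27, 28 and 30 of Group 1. In Group 3 it was 1.54, 4.39 and 5.10 TPM in pigs 31, 33 and 34. The highest values belonged to pigs 33 and 34, but pig 31 lay within the range of the other groups. The log2 difference of Group 3 over Group 2 was 0.91 (SE 0.45, 95% interval -0.05 to 1.88), with an unadjusted p of 0.0622 and an adjusted p of 0.716, and that of Group 1 over Group 3 was -0.63 (SE 0.45) with an adjusted p of 0.943 (both limma, Benjamini-Hochberg). The former had an unadjusted p of 0.0128 without pig 31 and 0.202 without pig 29, and the latter ran from -1.02 without pig 31 (unadjusted p = 0.0417) to -0.26 without pig 27 (limma). Group 1 over Group 2 stood at 0.28, and at -0.07 without pig 30. Schwann and glial markers, 3 of 5 listed, summed to 0.668 to 6.89 TPM in Group 3, 1.58 to 4.69 in Group 2 and 0.918 to 2.33 in Group 1, and their part in ATP1B2 was not tested.

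FXYD1 (ENSSSCG00000021374), more abundant than 99.4% of all genes by mean TPM, was the steadiest of these genes. It measured 478, 474 and 436 TPM in pigs 24, 25 and 29 of Group 2 and 481, 470 and 558 TPM in pigs 31, 33 and 34 of Group 3. In Group 1 it was 404 and 373 TPM in pigs 27 and 28 but 841 TPM in pig 30. The mean was 539 ± 262 (SD, n = 3) in Group 1, 463 ± 23.4 in Group 2 and 503 ± 48.0 in Group 3, so most of the spread lay within Group 1. The log2 difference was 0.12 for Group 3 over Group 2 (95% interval -0.50 to 0.74, adjusted p = 0.973) and 0.00 for Group 1 over Group 3 (95% interval -0.62 to 0.62, adjusted p = 0.999) by limma with Benjamini-Hochberg adjustment. The intervals therefore leave room for changes of either sign. Without pig 30, Group 1 over Group 3 was -0.37 with an unadjusted p of 0.0695.

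Read together, 0 of the 4 genes had both an absolute log2 difference over 1 and an adjusted p under 0.05 in the tested comparisons, where 0.0509% of all genes did so for Group 3 over Group 2 and 0.0509% for Group 1 over Group 3. At an unadjusted p under 0.05, 1 of 4 was counted (ATP1B4, lower) for Group 3 over Group 2, against 7.22% of all genes, and 2 of 4 (ATP1B4 lower, ATP1B1 higher) for Group 1 over Group 3, against 6.01%. Both comparisons hold hearts from which ATP1B4 was chosen, so nothing about these genes is read from the counts. The counts also moved with the settings and with single hearts. For Group 1 over Group 3, 0 of 4 were counted without pig 30 or pig 33, beside 9.49% and 5.95% of all genes. For Group 3 over Group 2, 0 of 4 were counted without pig 24, beside 4.12% of all genes, and without pig 31 the gene counted was ATP1B2 (higher) in place of ATP1B4, beside 7.17%. The count there was 2 of 4, with ATP1B2 beside ATP1B4, under median-of-ratios scaling, quantile normalization, omission of mitochondrially encoded genes and array weights, and without pig 25 or pig 27. In these settings the unadjusted p of ATP1B2 was, in that order, 0.0230, 0.0280, 0.0484, 0.0102, 0.0423 and 0.0478 (limma). The share of all genes counted rose too, to 12.4%, 12.3%, 11.1% and 15.8% in the first 4 of these settings, and was 5.27% without pig 25 and 8.41% without pig 27. The groups overlapped for 4 of 4 genes in both comparisons, while they did not overlap for 14.7% and 7.48% of all genes. The plot of fold changes shows the opposite signs of ATP1B4 and ATP1B1 in Group 1 over Group 3.

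**Figure D2:**
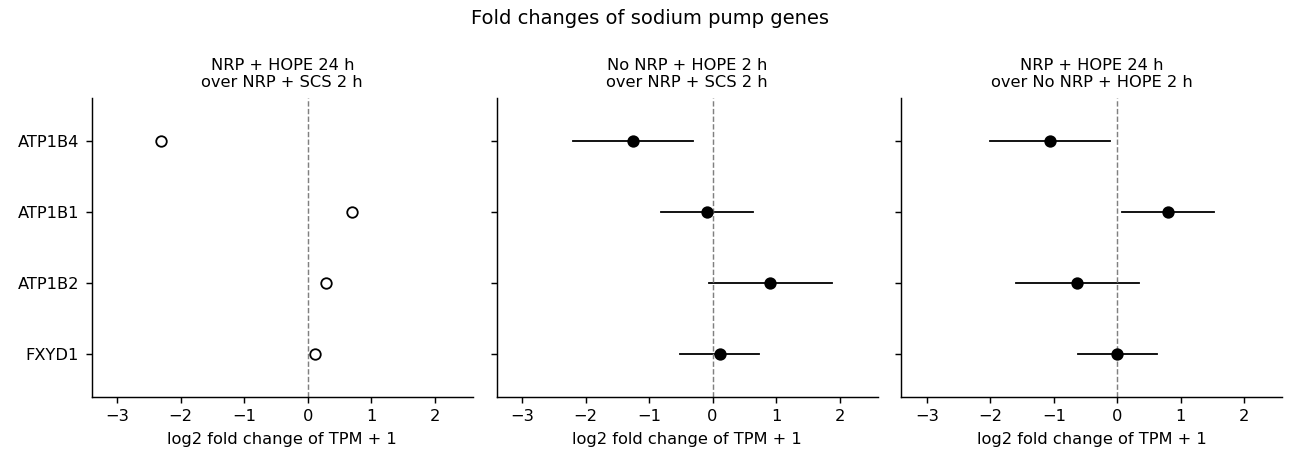
Log2 differences of TPM + 1 (horizontal axis) for ATP1B4, ATP1B1, ATP1B2 and FXYD1 in the 3 comparisons, with 95% limma intervals as lines; open circles mark the comparison that chose ATP1B4 and carry no interval. ATP1B4 stands at -2.31, -1.25 and -1.06, and ATP1B1 at 0.70, -0.09 and 0.79, the middle value of ATP1B1 turning in sign under median-of-ratios scaling.

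Shares within each heart do not depend on the scaling between hearts. ATP1B4 made up 45.4%, 18.5% and 37.4% of the summed TPM of ATP1B1, ATP1B2 and ATP1B4 in pigs 24, 25 and 29 of Group 2, and 12.2%, 17.8% and 20.5% in pigs 31, 33 and 34 of Group 3. In Group 1 it made up 8.19%, 7.14% and 1.92% in pigs 27, 28 and 30. By this share Group 1 lay wholly below Group 3, although the TPM of ATP1B4 itself overlapped between them. The mean share was 5.75% ± 3.36 (SD, n = 3) in Group 1 and 16.8% ± 4.23 in Group 3, with an exact permutation p of 0.1, two-sided, the smallest that 3 hearts against 3 can give, and 0.267 after adjustment over 8 such tests. Group 3 overlapped with Group 2 (33.8% ± 13.9), with an exact permutation p of 0.2.

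The sum of ATP1B1 and ATP1B2, the beta subunits of the pump itself that were measured, was 106 ± 44.6 TPM in Group 1, 61.8 ± 13.5 in Group 2 and 59.8 ± 11.7 in Group 3 (SD, n = 3). Its hearts overlapped in every comparison, with exact permutation p-values of 0.8 for Group 3 against Group 2 and 0.2 for Group 1 against Group 3. ATP1B2 took 3.05%, 7.82% and 7.0% of that sum in pigs 31, 33 and 34 of Group 3, above the 1.07% to 2.87% of Group 2 and the 1.17% to 2.46% of Group 1. Neither pair of groups overlapped, and each exact permutation p was 0.1, or 0.267 adjusted over the 8 tests. ATP1B1 supplied the remainder. The marker sums that separated Group 3 from Group 2 or from Group 1 are those given above.

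**Figure D3:**
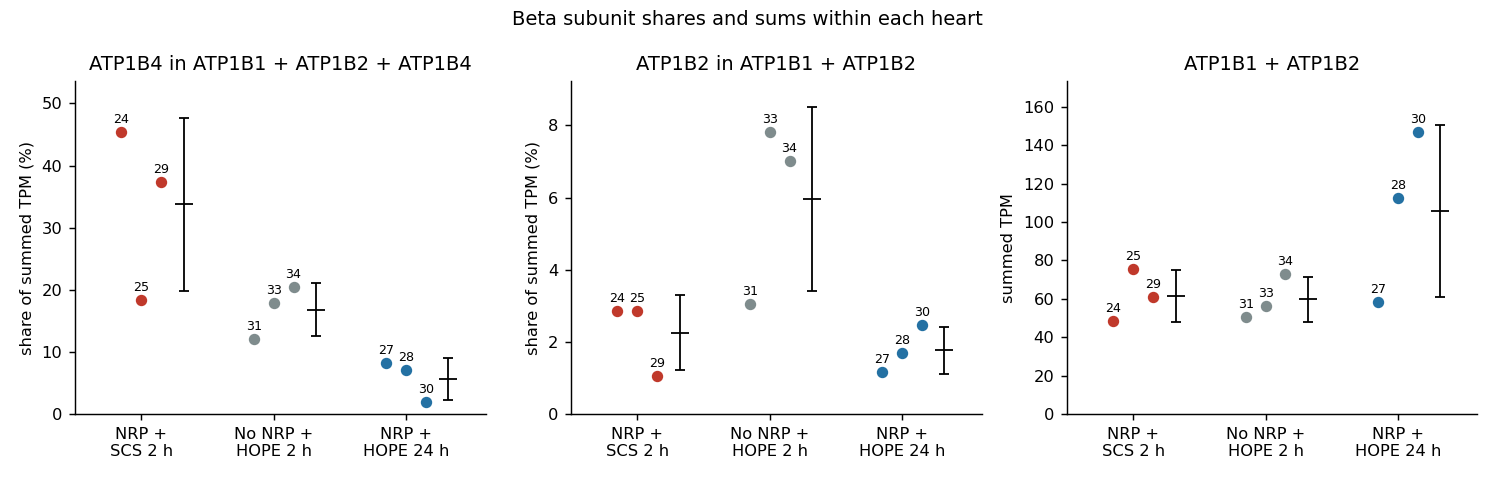
Within-heart shares of summed TPM (%) of ATP1B4 and ATP1B2 and the summed TPM of ATP1B1 and ATP1B2 (vertical axes, linear from 0) for each heart, with pig numbers and the mean ± SD (n = 3). Group 1 lies below Group 3 for ATP1B4 (5.75% against 16.8%), and Group 3 lies above both other groups for ATP1B2 (5.96%), while the sums overlap between all groups.

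Of the genes around the pump, 29 reported here were tested from lists of related genes, and in the 3 comparisons 0 passed the adjusted threshold. Group 1 over Group 2 was tested for these genes, and 3 of 29 had an unadjusted p under 0.05 against 4.97% of all genes, with 0.0255% of all genes called at the adjusted threshold. For Group 3 over Group 2 there were 3 of 29, against 7.22% of all genes, and for Group 1 over Group 3 there was 1 of 29, against 6.01%. The median log2 difference of the 29 genes was 0.01, -0.24 and 0.21 in the 3 comparisons, beside -0.12, -0.07 and -0.03 for all genes. These counts also rested on single hearts. Over the alternatives they ran from 1 to 4, 1 to 6 and 0 to 7, beside 3.21% to 15.4%, 4.12% to 15.8% and 4.12% to 15.9% of all genes, the highest being 7 under quantile normalization. Median-of-ratios scaling gave 6 in that comparison, where 11.7% of all genes were counted. Of the 3 genes in Group 1 over Group 2 (FXYD2, PRKCA and SLC8A2), SLC8A2 alone was still counted without pig 30 or pig 24. Of the 3 in Group 3 over Group 2 (SLC20A2, SLC6A8 and SRC), SLC20A2 alone was still counted without pig 31 or pig 25. The medians moved as well, to -0.31 without pig 30 in the first comparison, to -0.06 without pig 31 in the second, and to -0.07 without pig 30 in the third, beside -0.31, 0.06 and -0.23 for all genes.

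Among the other FXYD proteins, FXYD2, known from the kidney, was 2.39 to 8.38 TPM in Group 1 and 8.62 to 14.1 TPM in Group 2, a log2 difference of -1.31 (SE 0.54, adjusted p = 0.943 by limma). Its unadjusted p was under 0.05 in 9 of 18 alternatives and was 0.0833 under median-of-ratios scaling and 0.133 without pig 30 (limma). FXYD6 was the more abundant, at 31.3 to 136 TPM over the 9 hearts, below FXYD1 in each. FXYD3 did not exceed 0.195 TPM. Of the nuclear partner and target reported for ATP1B4, SNW1 was listed at 0 in all 9 hearts, and no level is read from that listing. SMAD7, an inhibitor of TGF-beta signalling, had mean TPM of 21.3 ± 8.43 in Group 1, 20.0 ± 7.95 in Group 2 and 24.8 ± 8.01 in Group 3 (SD, n = 3), with overlapping hearts and adjusted p-values of 0.918 to 0.993 by limma.

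Genes that regulate or anchor the pump (16 tested of 17 listed) had 1 gene with an unadjusted p under 0.05 in each comparison, near the shares of 4.97%, 7.22% and 6.01% over all genes, so the genes below are named only as those with the smallest p. PRKCA, a protein kinase C, had a log2 difference of 0.94 for Group 1 over Group 2 (adjusted p = 0.985). The kinase SRC stood at -0.98 for Group 3 over Group 2 (adjusted p = 0.664), and the beta-1 adrenergic receptor ADRB1, upstream of the protein kinase A that acts on FXYD1, stood at 1.20 for Group 1 over Group 3 (adjusted p = 0.822, all limma with Benjamini-Hochberg). For ADRB1 pig 30 gave 23.6 TPM, while the other hearts of Group 1 gave 4.08 and 4.58 TPM, and without pig 30 its difference was 0.46 with an unadjusted p of 0.24 (limma). Neutrophil and smooth muscle markers separated the groups of that comparison too. PRKCA had an unadjusted p of 0.163 without pig 30, and SRC one of 0.115 without pig 31 and of 0.196, with a difference of -0.61, without pig 24 (limma). An unadjusted p under 0.05 was found in 10 of 17 alternatives for PRKCA, 12 of 18 for SRC and 13 of 18 for ADRB1.

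Genes of sodium entry and exchange, which bring in the sodium that the pump expels, had negative log2 differences for 9 of the 9 tested genes reported here in Group 3 over Group 2, beside 57.7% of all genes, with a median of -0.50 beside -0.07. Under median-of-ratios scaling and quantile normalization it was again 9 of 9, with medians of -0.46 and -0.49, beside 49.3% and 50.9% of all genes. Without mitochondrially encoded genes 10 of 11 were negative, beside 57.8%, with a median of -0.63. With no filter on low values 12 of 16 were negative and 4 positive, beside 52.0% of all genes negative, with a median of -0.39 beside -0.02. Without pig 24, 8 of 9 were negative, beside 57.9%. Without pig 31, 6 of 9 were negative, beside 43.5% of all genes, with a median of -0.30 beside 0.06. The neutrophil, erythroid and fibroblast marker sums given above did not overlap between these groups. An unadjusted p under 0.05 was found for 2 of the 9, SLC20A2 and SLC6A8, against 7.22% of all genes, and for SLC20A2 alone without pig 25 or pig 31, beside 5.27% and 7.17%. For Group 1 over Group 3, 8 of 9 were positive and 1 of 9 negative, beside 53.9% of all genes negative, with a median of 0.29 beside -0.03. With no filter on low values 12 of 16 were positive there and 4 negative, beside 52.3% of all genes negative. Without pig 31 or pig 30, 3 of 9 were negative there, beside 66.5% and 72.3% of all genes, with medians of 0.04 beside -0.17 and 0.05 beside -0.23. These comparisons share the hearts of Group 3, and neutrophil and smooth muscle markers separated Group 1 from Group 3. The sodium-dependent phosphate transporter SLC20A2 was 10.6 to 23.3 TPM in Group 2 and 4.77 to 6.90 TPM in Group 3 (log2 difference -1.46, SE 0.36, adjusted p = 0.279 by limma). The creatine transporter SLC6A8 was 105 to 153 and 52.0 to 95.9 TPM in the same groups (log2 difference -0.80, SE 0.31, adjusted p = 0.591 by limma), and its unadjusted p was 0.0946 without pig 25 and 0.0911 without pig 31 (limma). For Group 1 over Group 2, 6 of 9 were negative, beside 64.1% of all genes, with a median of -0.20 beside -0.12, and the count was 4 of 9 without pig 27, beside 45.3% of all genes, and 9 of 9 without pig 30, beside 80.1%. SLC8A2, 1 of several sodium-calcium exchanger genes, was 5.89 to 7.77 TPM in Group 2 and 1.20 to 3.06 TPM in Group 1 (log2 difference -1.25, SE 0.34, adjusted p = 0.426 by limma). From this gene alone nothing is read about sodium-calcium exchange in these hearts.

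The genes whose pattern over the 9 hearts was most like that of ATP1B4 were found by the root-mean-square difference of centred log2(TPM + 1) among 7944 genes. SLC19A2, a thiamine transporter, was the nearest at 0.442, on a scale where ATP1B4 itself had a standard deviation of 1.15. Its mean TPM was 95.2 in Group 2, 53.4 in Group 3 and 32.4 in Group 1. BVES, a muscle membrane protein that binds cyclic AMP, was the fourth at 0.605, and MNS1 the fifth at 0.628. BVES had 18.9 to 33.5 TPM in Group 2, 5.65 to 10.6 TPM in Group 3 and 5.85 to 6.18 TPM in Group 1, so its Groups 1 and 3 overlapped. The second and the third, ssc-mir-24-1 at 0.544 and a small RNA listed by its family name RF00071 at 0.566, are short genes. These are descriptions over 9 hearts, and the ranking used the values that also chose ATP1B4.

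**Figure D4:**
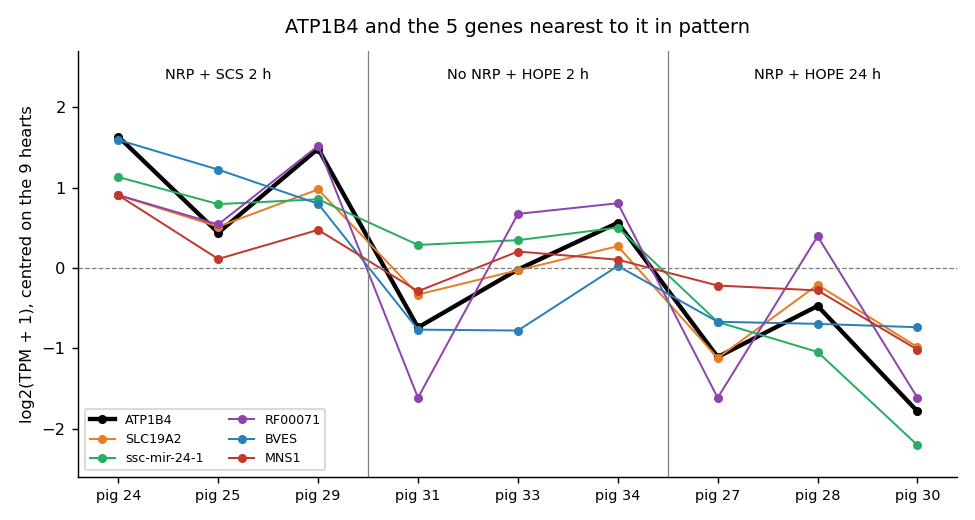
Log2(TPM + 1) centred on the mean of the 9 hearts (vertical axis) for ATP1B4 (thick black line) and the 5 genes nearest to it, with hearts ordered by group and pig number; lines join hearts for legibility only. ATP1B4 and SLC19A2 (root-mean-square difference 0.442) are both above their means in all 3 hearts of Group 2 and below them in all 3 of Group 1.

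Among the other genes, FXYD1 was matched by RBPMS2, a smooth and cardiac muscle RNA-binding protein, at 0.0414, followed by MUL1 at 0.0942 and C6orf106 at 0.106. ATP1B1 was matched by APBB1IP at 0.159, SMTNL2 at 0.206 and SH3KBP1 at 0.211. ATP1B2 was matched by ECM1 at 0.207, TNKS1BP1 at 0.223 and CD300C at 0.236. The measure falls for genes of small spread, so these distances rank genes within 1 member and do not compare members.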

How the data were processed

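RNA from 9 apex biopsies (3 pigs per group, no pig in more than 1 group) was analysed, with each heart assigned by the pig number in its label. The authors deposited TPM values, made per the labels and methods with bcl2fastq 2.17, Trimmomatic 0.36, STAR 2.5.2b and featureCounts (Subread 1.5.2). The genome build and the gene lengths behind the TPM are not given in the sources used here. Since TPM keep no depth, sequencing depth is unknown here, and precision was taken from how far the 3 hearts within a group differed. ERCC spike-in was added to the RNA but was not used here. A further 9 columns of the table were not used.

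The authors ran DESeq2 on counts. Since TPM are not counts, limma 3.58.1 (R 4.3.3) was run on log2(TPM + 1), a scale that understates changes of low genes, fitting a mean for each group to all 9 hearts together, and eBayes with trend. Genes entered the fit when 3 or more hearts reached 1 TPM, which left 11782; tests were two-sided, p-values were adjusted by Benjamini-Hochberg within each comparison, and a call required both an absolute log2 fold change over 1 and an adjusted p under 0.05. The procedure was also run on simulated data, and the outcome is not reported here. Within-heart sums and shares were compared by two-sided exact permutation tests in Python 3.11.15 (pandas 2.3.3, numpy 2.4.6), and matplotlib 3.10.9 drew the figures. Positions are those of the RefSeq annotation of Sscrofa11.1, found by symbol, and FXYD1 was not matched there.

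The 5 genes and the gene lists were chosen with earlier results of these data known. Named genes are the listed members, any gene of the short lists, those among the 3 smallest unadjusted p-values of a longer list in a comparison, and the 5 or 3 genes nearest in pattern. Alternatives tried were no filter, a pseudocount of 0.1, a filter on mean TPM (at least 5), quantile normalization, median-of-ratios scaling, omission of mitochondrially encoded genes, eBayes without trend, array weights (statmod 1.5.0, an iteration that ended short of its tolerance), only the 6 hearts compared, and leaving out each heart. For within-heart shares the alternative was the log2 ratio to ATP1B1. Some genes of the lists are not reported here.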

Additional observations from a re-analysis of the deposited data

How the results depend on the processing

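ATP1B4 kept its sign under each of its 18 alternatives, but several of them could not change its log2 difference. These were no filter, the mean TPM filter, eBayes without trend, fitting only the hearts compared, and leaving out a heart of the group not compared. The sign of Group 1 over Group 2 is also the one that chose the gene. The log2 differences were -2.68 to -1.79 for Group 1 over Group 2. For Group 3 over Group 2 they were -1.63 to -0.91 (adjusted p 0.195 to 0.999 by limma). For Group 1 over Group 3 they were -1.39 to -0.73 (adjusted p 0.356 to 1.0 by limma). None of ATP1B4, ATP1B1, ATP1B2 and FXYD1 passed the adjusted threshold under any alternative in the tested comparisons. Signs turned where differences were small, and the cause was not tested. ATP1B1 in Group 3 over Group 2 was 0.0055 under median-of-ratios scaling, 0.016 under quantile normalization and -0.26 to 0.057 with 1 heart left out. ATP1B2 in Group 1 over Group 2 was -0.073 to 0.66 with 1 heart left out. FXYD1 in Group 1 over Group 2 was -0.17 with array weights and -0.25 to 0.33 with 1 heart left out, and in Group 1 over Group 3 it was -0.037 under quantile normalization, -0.23 with array weights and -0.37 to 0.22 with 1 heart left out. Array weights gave an adjusted p of 0.0459 for SLC20A2 in Group 3 over Group 2 and 0.0352 for SLC8A2 in Group 1 over Group 2. The difference in summed ATP1B1 and ATP1B2 for Group 3 minus Group 2 was 1.74 TPM under median-of-ratios scaling and -8.45 to 5.03 TPM with 1 heart left out. The planned shares with a wider denominator are not reported here. The mean TPM filter of 5 left ATP1B2, SLC8A2 and PRKCA without a value.

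Counts of genes moved by more than 1.5 times. At the adjusted threshold they were 3 (0 to 60) for Group 1 over Group 2, 6 (1 to 94) for Group 3 over Group 2 and 6 (0 to 16) for Group 1 over Group 3, with the highest of the first and second under array weights. At an unadjusted p under 0.05 they were 585 (330 to 1812), 851 (485 to 1864) and 708 (411 to 1869). No paired analysis was possible because the groups share no pigs and no replicate numbers. With 3 hearts per group and no counts, small differences could not be resolved.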

Other observations

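ATP4B, the beta subunit of the gastric proton pump and a relative of the sodium pump beta subunits, was listed at 4.55 to 27.7 TPM over the 9 hearts, with a mean TPM near that of ATP1B4 (13.2 against 16.5). Its catalytic partner ATP4A did not exceed 0.161 TPM, and ATP12A was listed at 0 in all 9 hearts. By group, ATP4B measured 12.1, 7.99 and 10.5 TPM in pigs 24, 25 and 29 of Group 2, 13.2, 13.9 and 27.7 TPM in pigs 31, 33 and 34 of Group 3, and 5.69, 4.55 and 23.5 TPM in pigs 27, 28 and 30 of Group 1. The ranges of Groups 3 and 2 did not overlap, with Group 3 the higher. In that comparison 7 of the 29 genes of the lists did not overlap in either direction, ATP4B among them, beside 14.7% of all genes. The log2 difference of Group 3 over Group 2 was 0.72 (SE 0.49, adjusted p = 0.825 by limma). That of Group 1 over Group 3 was -0.91 (SE 0.49, adjusted p = 0.860 by limma). Without pig 34 the former was 0.39, and the latter ran from -1.58 without pig 30 to -0.51 without pig 28.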
